A study of Mus musculus with 2 samples.

Results

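The family of miR-130 and miR-301 comprises 4 mouse miRNA hairpins, miR-130a, miR-130b, miR-301a and miR-301b, each of which is cut into a 5p and a 3p arm. Its 8 mature arms were chosen by name and were found as 8 of the 1847 miRNAs listed in 2 libraries of serum extracellular vesicles (EVs), membrane-bound particles shed by cells and carried in blood. A miRNA is loaded into an Argonaute protein and recognizes target mRNAs mainly through its seed, the bases from position 2 to position 8 counted from the 5′ end. In this family the 3p arms are the guide strands, and the 5p arms are the passenger strands that are mostly degraded. The family is known for repression of Pparg, the nuclear receptor that drives adipocyte differentiation, and miR-130a is also known from endothelial cells and angiogenesis.

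Both groups were male mice of 7 weeks that received 100 mg/kg tamoxifen on 5 days and were sampled on day 3 after the last dose. The iFIRKO group had the genotype Adipoq-CreERT2; Insr flox/flox, where tamoxifen activates a Cre recombinase driven by the adiponectin promoter, so that the insulin receptor gene is deleted in adipocytes. The control group is labelled WT, whereas the methods of the study describe its controls as Insr flox/flox mice without Cre. Each group had 1 library, made from pooled serum of several mice, so that no spread between animals was measured and no test between genotypes was possible. Every interval below covers counting error only, and the comparisons are between the control-labelled library and the iFIRKO-labelled library. No miRNA reports the deletion of Insr, so the knockout itself could not be read from these libraries.

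Other miRNAs put the direction of the labels in doubt. The study took miR-144-3p, miR-16-2-3p, miR-451a and miR-486a-3p forward as miRNAs raised in iFIRKO serum EVs. The study also reports them as raised by quantitative RT-PCR of individual serum samples, against a reference miRNA and against a spike-in control. In the deposited values all 4 were lower in the library labelled iFIRKO, with ratios of iFIRKO to control of 0.506 (95% interval 0.456 to 0.562), 0.557 (0.545 to 0.569), 0.409 (0.396 to 0.422) and 0.549 (0.521 to 0.579), and all 4 were lower under every scaling tried. The study also describes most miRNAs as decreased, whereas on the deposited scale most were higher in the library labelled iFIRKO. This majority rested on scarcer miRNAs and on the scaling. Of the 118 miRNAs with a mean count over 1000, 48 were higher. With TMM scaling, the trimmed mean of log ratios over all miRNAs, 388 were over 1.5-fold higher and 360 lower. The directions of the 4 miRNAs and of the deposited table as a whole are those that exchanged labels would give. With exchanged labels, 56 miRNAs would be over 1.5-fold higher on the deposited scale, or 24 among those with a mean count of at least 10. The study reports a smaller count of raised miRNAs, and any filter behind it is not given in the sources used here. Whether the labels were exchanged cannot be told from the deposited values. The directions given here keep the deposited labels, and with the labels exchanged each ratio would turn to its inverse.

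The sequences of the guide arms are shown first because the family is defined by their shared seed, given in capitals and taken from RefSeq (GRCm38.p6).
miR-130a-3p: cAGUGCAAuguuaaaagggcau
miR-130b-3p: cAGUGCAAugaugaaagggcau
miR-301a-3p: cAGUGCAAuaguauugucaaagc

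The RefSeq sequences covered 7 of the 8 members, and miR-301b-3p is given by name only. With positions counted from the 5′ end, miR-130a-3p and miR-130b-3p were identical at 20 of 22 positions and differed by U11A and A13G (the base of miR-130a-3p is given first). miR-301a-3p shared its first 9 bases with both and then diverged, with 12 identical positions of 22 compared with miR-130a-3p. How the authors assigned reads that could match 2 of these miRNAs is not given in the sources used here, so the split between near-identical members is uncertain.

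The passenger arms, shown with the same capitals, carried other seeds.
miR-130a-5p: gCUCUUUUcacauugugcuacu
miR-130b-5p: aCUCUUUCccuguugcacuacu
miR-301a-5p: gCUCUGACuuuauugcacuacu
miR-301b-5p: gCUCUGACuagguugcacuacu

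miR-301a-5p and miR-301b-5p shared 1 seed and differed by U10A, U11G and A12G (the base of miR-301a-5p first), whereas miR-130a-5p and miR-130b-5p each had a seed of their own within the family.

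The hairpins lie at 3 places in the genome (GRCm38, the build that the submitters name as mm10). Mir130a lies on chromosome 2 from 84741115 to 84741178 on the minus strand, outside other annotated genes. Mir301, the gene of miR-301a, lies in an intron of Ska2 on chromosome 11 (87113004 to 87113089, plus strand). Ska2 encodes a protein of the spindle and kinetochore complex. Mir130b (17124061 to 17124142) and Mir301b (17124400 to 17124496) lie 257 bases apart on the minus strand of chromosome 16, both intronic in the protein-coding gene 2610318N02Rik.

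To put the known target beside the seed, the annotated 3′-UTRs of Pparg were searched on the transcript strand for TTGCACT, the reverse complement of the shared seed in DNA letters. The letters occurred once, in each of 3 transcripts, at position 42 of the 3′-UTR and at the same place in the genome, chr6:115490237-115490243 on the plus strand, and were followed by an A. The surrounding stretch, chr6:115490226-115490254, is shown with the match in capitals.
Pparg: ccttctattgaTTGCACTattattttgag

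The longest annotated Pparg 3′-UTR had 204 bases, and the same letters were found in the first 204 bases of the 3′-UTR of 291 of 18026 genes (1.61%). A match of letters is a description, and no target mRNA was measured in these files.

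Depth was 3817902 counts in the control-labelled library and 2233498 in the other. Values are given as counts and as counts per 1000000 (CPM), which is the deposited signal rescaled, and all 8 members were above the limit of 10 counts below which the tables give no graded values. Because each value is a share of a library, the number of vesicles and the amount of a miRNA per vesicle cannot be told apart.

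The summed level of the family was nearly the same in both libraries, while its members differed in direction. The 8 members together reached 1277 CPM in the control-labelled library (4875 counts) and 1274 CPM in the iFIRKO-labelled library (2846 counts), a ratio of iFIRKO to control, as labelled, of 0.998 (95% interval 0.953 to 1.05). This was 0.128% of the first library (95% Wilson interval 0.124 to 0.131) and 0.127% of the second (0.123 to 0.132). The 4 guide arms summed to a ratio of 0.975 (0.929 to 1.02), and the 4 passenger arms, which held 242 and 204 counts, to a ratio of 1.44 (1.19 to 1.74), or 0.797 with TMM scaling, the trimmed mean of log ratios over all miRNAs. The sum rested on miR-130a-3p, and without it the other 7 members had a ratio of 0.880 (0.819 to 0.946). It also rested on the scaling: the ratio was 0.830 when the libraries were scaled to the median of ratios over miRNAs averaging 100 counts or more, 0.857 when they were scaled to miR-148a-3p, the reference miRNA of the study, and 0.552 with TMM scaling.

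mmu-miR-130a-3p, the most abundant member, stood at 695 CPM in the control-labelled library (2652 counts) and at 762 CPM in the iFIRKO-labelled library (1701 counts). Its ratio was 1.10 (95% interval 1.03 to 1.17), the only guide arm whose interval lay above 1, and it was below 1 under the scalings to miR-148a-3p (0.942), to the median of ratios (0.912) and with TMM (0.607). With exchanged labels its ratio as deposited would be 0.912 (0.858 to 0.970). It ranked 88th and 81st among the listed miRNAs.

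mmu-miR-301a-3p, the second most abundant, stood at 289 and 206 CPM (1102 and 459 counts), with a ratio of 0.712 (0.637 to 0.795). It was the only member whose whole interval lay below 1 on the deposited scale. With exchanged labels the ratio would be 1.40 (1.26 to 1.57). On the deposited scale it did not pass the 1.5-fold threshold that the study used to call miRNAs, but it did when scaled to the median of ratios (0.592), to miR-148a-3p (0.611) or by TMM (0.394).

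mmu-miR-130b-3p stood at 201 and 180 CPM (767 and 403 counts), with a ratio of 0.898 whose interval (0.794 to 1.01) included 1. mmu-miR-301b-3p, which comes from the same host gene, stood at 29.3 and 35.4 CPM (112 and 79 counts), and its ratio of 1.21 had an interval (0.892 to 1.62) that also included 1. For this chromosome 16 pair a difference between the libraries was not detectable on the deposited scale, and this rested on the scaling. The ratio of miR-130b-3p was 0.771 when scaled to miR-148a-3p, 0.747 with the median of ratios and 0.497 with TMM. Its interval, multiplied by the same factors, then lay below 1. The ratio of miR-301b-3p was 1.04 when scaled to miR-148a-3p and 0.667 with TMM, and its interval lay below 1 with TMM only.

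The passenger arms were at low counts, and all 4 had a higher share in the iFIRKO-labelled library. mmu-miR-130a-5p stood at 24.9 and 35.4 CPM (95 and 79 counts), with a ratio of 1.42 (1.04 to 1.94). mmu-miR-301a-5p stood at 14.7 and 23.3 CPM (56 and 52 counts), with a ratio of 1.59 (1.07 to 2.36). The intervals of both lay above 1 on the deposited scale. Their ratios fell to 1.22 and 1.36 when scaled to miR-148a-3p, and to 1.18 and 1.32 with the median of ratios. The intervals of both, multiplied by the same factors, then included 1. mmu-miR-130b-5p had 71 and 51 counts (18.6 and 22.8 CPM), a ratio of 1.23 (0.840 to 1.78), and mmu-miR-301b-5p had 20 and 22 counts (5.24 and 9.85 CPM), a ratio of 1.88 (0.979 to 3.63). These 2 intervals included 1. With exchanged labels the summed passenger arms would have a ratio of 0.694 (0.574 to 0.840). With TMM scaling 3 of the 4 passenger arms were lower in the iFIRKO-labelled library, and miR-301b-5p alone stayed above 1 (1.04).

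**Figure D1:**
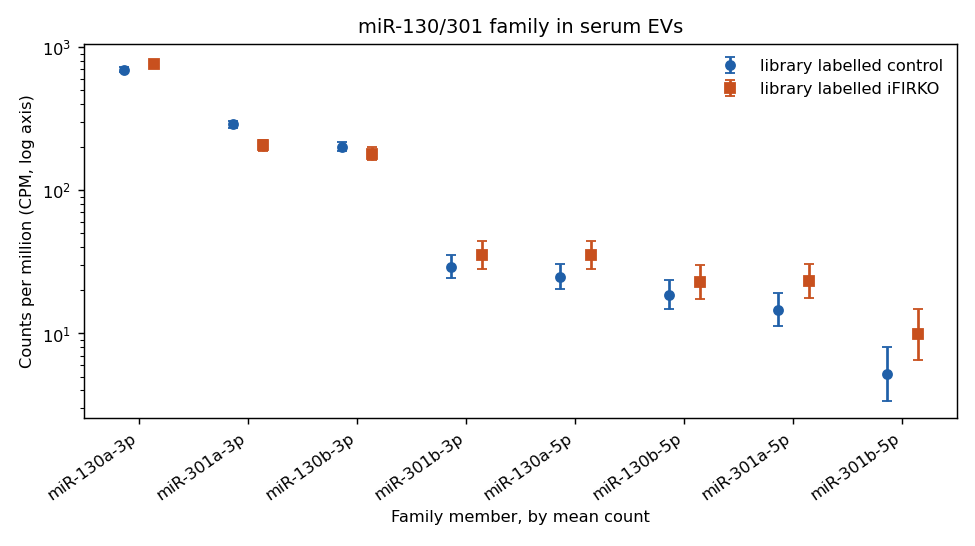
Level of the 8 family members in CPM (log axis) in the control-labelled library (circles) and the iFIRKO-labelled library (squares), with 95% Wilson intervals of counting error from 1 library each. miR-130a-3p stands highest at 695 and 762 CPM, miR-301a-3p is lower in the iFIRKO-labelled library, and the 4 passenger arms lie at 35.4 CPM or lower.

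The order of the members was largely shared between the libraries. In the control-labelled library miR-130a-3p exceeded miR-301a-3p by 2.41-fold (95% interval 2.24 to 2.58), which exceeded miR-130b-3p by 1.44-fold (1.31 to 1.58). In the iFIRKO-labelled library the first step was 3.71-fold (3.34 to 4.12), and miR-301a-3p and miR-130b-3p did not differ beyond counting error (1.14-fold, 0.994 to 1.31). The step from miR-130b-3p to the next member was 6.85-fold in the control-labelled library, where miR-301b-3p came next, and 5.10-fold in the iFIRKO-labelled library, where miR-301b-3p and miR-130a-5p had equal counts. miR-301b-5p was the lowest member in both.

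Because every scaling multiplies all members alike, the members were next compared with each other. Of 16 pairs compared, 6 of guide arms, 6 of passenger arms and 4 of the arms of 1 hairpin, 5 had a 95% interval that excluded 1, without adjustment for the number of pairs. Such intervals were not computed for pairs of miRNAs outside the family, so whether this number is particular to the family was not tested. The ratio of miR-130a-3p exceeded that of miR-301a-3p by 1.54-fold (1.36 to 1.75) and that of miR-130b-3p by 1.22-fold (1.06 to 1.40), although miR-130a-3p and miR-130b-3p differ at only 2 positions. The ratio of miR-130b-3p exceeded that of miR-301a-3p by 1.26-fold (1.07 to 1.49), and that of miR-301b-3p exceeded that of miR-301a-3p by 1.69-fold (1.23 to 2.33). The interval for miR-301b-3p over its neighbour miR-130b-3p (1.34-fold, 0.968 to 1.85) included 1, as did all 6 pairs of passenger arms.

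In terms of composition, miR-130a-3p made up 54.4% of the family's counts in the control-labelled library (95% Wilson interval 53.0 to 55.8) and 59.8% in the iFIRKO-labelled library (58.0 to 61.6). miR-301a-3p made up 22.6% (21.5 to 23.8) and 16.1% (14.8 to 17.5), and miR-130b-3p 15.7% (14.7 to 16.8) and 14.2% (12.9 to 15.5). The intervals of the first 2 did not overlap between the libraries, and those of miR-130b-3p did.

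The guide arm dominated in each hairpin in both libraries. The 3p share of both arms was 96.5% and 95.6% for miR-130a, 91.5% and 88.8% for miR-130b, and 84.8% and 78.2% for miR-301b, with overlapping intervals. For miR-301a it was 95.2% (93.8 to 96.3) in the control-labelled library and 89.8% (86.9 to 92.2) in the other, without overlap, and the ratio of miR-301a-5p exceeded that of miR-301a-3p by 2.23-fold (1.47 to 3.37). The passenger arm had the higher ratio in 4 of 4 hairpins, by 0.37 to 1.16 on the log2 scale. Over the 610 hairpins with both arms above the limit in both libraries, the less abundant arm had the higher ratio in 56.1% and the median difference was 0.13 on the log2 scale. Among the 231 of these whose dominant arm had a mean count of at least 100, it was 66.2% with a median difference of 0.25. How many of these hairpins had arm shares without overlap, as miR-301a did, was not computed.

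**Figure D2:**
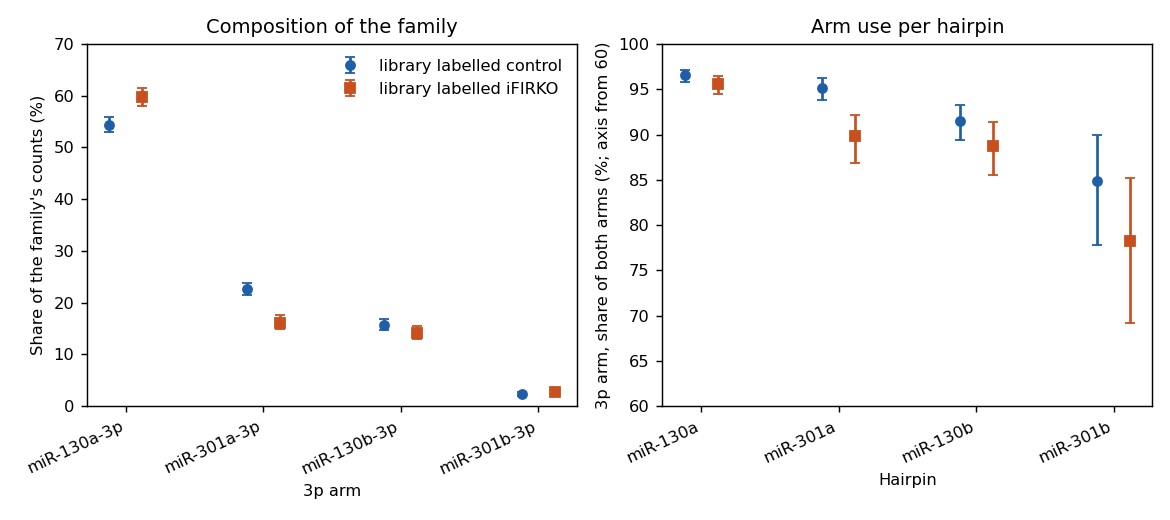
Left, share of the family's counts held by each 3p arm. Right, share of the 3p arm among both arms of its hairpin (axis from 60%). Circles are the control-labelled library, squares the iFIRKO-labelled library, and bars are 95% Wilson intervals of counting error. miR-130a-3p holds 54.4% and 59.8% and miR-301a-3p 22.6% and 16.1% of the family in the 2 libraries, and the 3p share of miR-301a is 95.2% and 89.8%.

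The family was then set beside all listed miRNAs. On the deposited scale 6 of the 8 members had a higher share in the iFIRKO-labelled library, against 88.1% of all miRNAs. Past 1.5-fold, 2 members (miR-301a-5p and miR-301b-5p) were higher, against 66.3% of all miRNAs, and 0 were lower, against 3.03%. With TMM scaling the split turned, with 0 members higher and 3 lower (miR-130a-3p, miR-130b-3p and miR-301a-3p), while 388 and 360 of all miRNAs were higher and lower. The guide arms had a median log2 ratio of -0.01 and the passenger arms of 0.59, and the median over all miRNAs was 0.88. Most of the table was shifted towards the iFIRKO-labelled library on the deposited scale, with 1225 miRNAs over 1.5-fold higher and 56 lower. The study describes the opposite, with most miRNAs decreased, and these counts would change places with exchanged labels. The scalings differed in size: TMM lowered every log2 ratio by 0.85 and the median of ratios by 0.27.

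The ratio of a miRNA moved with its abundance in these tables, so the members were read against miRNAs of their own abundance class. In the class with a mean count from 10 to 100, 76.7% of 1350 miRNAs were over 1.5-fold higher and the median log2 ratio was 1.01. It held 5 members, the 4 passenger arms and miR-301b-3p, of which 2 were over 1.5-fold higher and all 5 lay below that median. In the class from 100 to 1000, 47% of 302 miRNAs were over 1.5-fold higher and the median was 0.53. Its 2 members, miR-130b-3p (-0.15) and miR-301a-3p (-0.49), were both below it. Of the 302, 8 had a lower log2 ratio than miR-301a-3p and 42 a lower one than miR-130b-3p. These members had mean counts of 585 (miR-130b-3p) and 780.5 (miR-301a-3p), in the upper part of a wide class. In the class over 1000, 2.54% of 118 miRNAs were over 1.5-fold higher and the median was -0.07. miR-130a-3p (0.13) lay above it, with 87 of the 118 lower. Thus 7 members lay below and 1 above the median of their class, a position that scaling cannot change. The log2 intervals of miR-301a-5p (0.09 to 1.24) and miR-301b-5p (-0.03 to 1.86) included their class median, and those of the other members did not. miR-130b-5p, miR-130a-5p and miR-301b-3p had mean counts of 61, 87 and 95.5, in the upper part of their class. How far these positions follow abundance within a class was not tested.

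**Figure D3:**
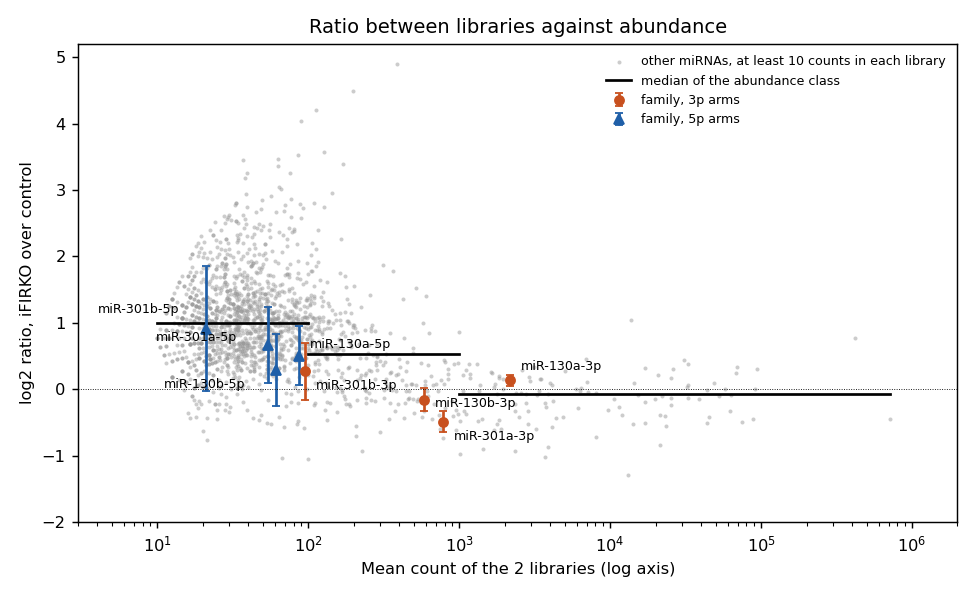
Log2 ratio of iFIRKO to control as labelled against the mean count of the 2 libraries (log axis), for miRNAs with at least 10 counts in each library (grey), the 3p arms (circles) and the 5p arms (triangles) of the family, with 95% intervals of counting error. Black lines are the class medians of 1.01, 0.53 and -0.07. miR-301a-3p at -0.49 lies below its line, and miR-130a-3p at 0.13 lies above its line.

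A further 4 listed miRNAs outside the family carry the same seed, and their sequences are shown for that reason.
miR-130c: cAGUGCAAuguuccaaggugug
miR-721: cAGUGCAAuuaaaagggggaa
miR-6341: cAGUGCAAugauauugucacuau
miR-6389: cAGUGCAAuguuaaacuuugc

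All were scarce, and together they held 142 counts in the control-labelled library and 146 in the iFIRKO-labelled library (ratio 1.76, 1.39 to 2.23, or 0.972 with TMM scaling), compared with 4633 and 2642 counts of the family's guide arms. miR-130c had 79 and 81 counts (ratio 1.75, 1.27 to 2.42), and its hairpin on chromosome 9 (53400805 to 53400886, minus strand) overlaps an exon of Kdelc2 on the opposite strand. miR-6389 had 14 and 29 counts (ratio 3.54, 1.81 to 7.25). miR-6341 (21 and 17 counts) and miR-721 (28 and 19 counts, from an intron of Cux1 on chromosome 5) had intervals that included 1. Adding these 4 to the guide arms gave a summed ratio of 0.998 (0.952 to 1.05), nearly the same level in both libraries on the deposited scale, and a ratio of 0.552 with TMM scaling.

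Another 7 miRNAs had a seed that shared 6 bases in a row with that of the family at a shift of 1 base. They included the miR-148/152 family, to which the reference miRNA of the study belongs, and the miR-19 family.
miR-148a-3p: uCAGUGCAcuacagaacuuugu
miR-19b-3p: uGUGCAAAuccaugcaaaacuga

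miR-148a-3p had 24524 and 16705 counts (6423 and 7479 CPM), a ratio of 1.16 (1.14 to 1.19), higher than that of miR-130a-3p. miR-152-3p had a ratio of 1.07 (1.02 to 1.12) and miR-148b-3p of 0.863 (0.822 to 0.906). miR-19b-3p had 5892 and 2330 counts (1543 and 1043 CPM), a ratio of 0.676 (0.644 to 0.709), and miR-19a-3p had a ratio of 0.761 (0.680 to 0.851), values near that of miR-301a-3p. Of these 7 miRNAs 4 were above 1 on the deposited scale and 0 with TMM scaling. miR-350-5p (ratio 1.58) and miR-291b-3p (ratio 1.01) were below 100 counts in both libraries.

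**Figure D4:**
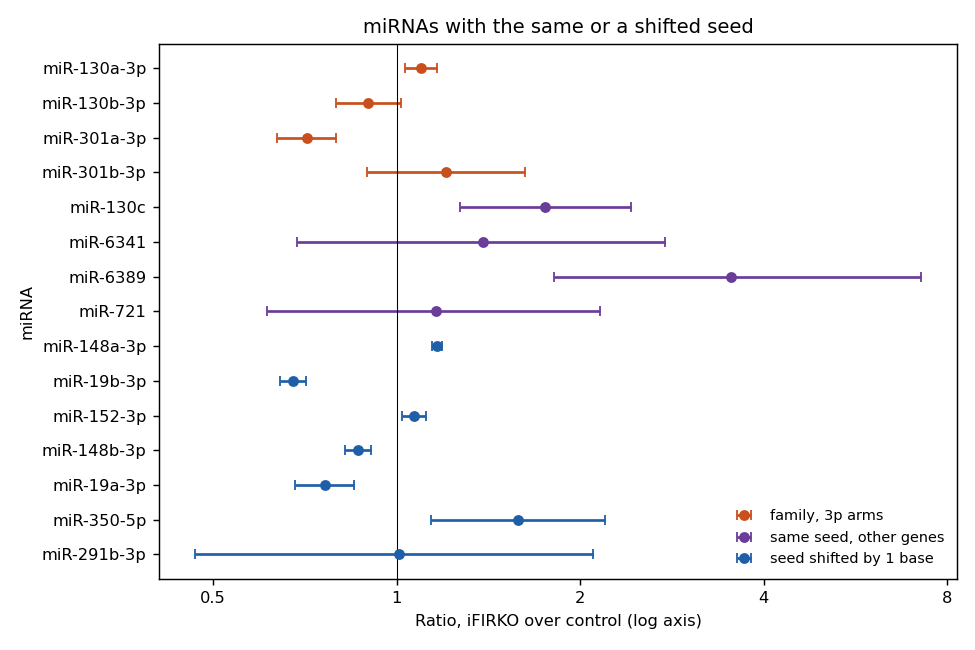
Ratio of iFIRKO to control as labelled (log axis) with 95% intervals of counting error for the 4 guide arms, the 4 other miRNAs with the same seed and the 7 miRNAs with a seed shifted by 1 base. miR-301a-3p (0.712), miR-19a-3p (0.761) and miR-19b-3p (0.676) lie below 1, and the same-seed miRNAs outside the family have wide intervals.

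The miRNAs whose ratio was most like that of the summed family, among 117 others with a mean count of at least 1000 and over these 2 libraries only, were miR-320-3p (650 and 649 CPM), let-7b-5p (18975 and 18984 CPM) and miR-30d-5p (14427 and 14324 CPM). Their log2 ratios lay within 0.01 of that of the family.

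Other miRNAs known for a part in adipocyte differentiation were examined as a list. Of its 17 members 7 were higher and 10 lower in the iFIRKO-labelled library on the deposited scale. Their median log2 ratio was -0.13, beside 0.88 for all miRNAs. Many of them were abundant, and the median of the class with a mean count over 1000 was -0.07. Past 1.5-fold, 1 was higher, against 66.3% of all miRNAs, and 0 were lower, against 3.03%. With the median of ratios 3 were higher and 14 lower, and with TMM 1 and 16. miR-27a-3p and miR-27b-3p, which are also known to repress Pparg, had ratios of 0.803 (0.779 to 0.827) and 0.880 (0.861 to 0.900). The guide arms miR-301a-3p (0.712) and miR-130b-3p (0.898) were on that side of 1, and miR-130a-3p (1.10) and miR-301b-3p (1.21) on the other. Of the 6 listed inhibitors of differentiation, 4 were lower and 2 higher, among the latter miR-33-5p (1.47, 1.23 to 1.76). miR-143-3p, which is known to promote differentiation, had a ratio of 0.762 (0.747 to 0.778), and miR-378a-3p, from an intron of the coactivator gene Ppargc1b, had a ratio of 1.21 (1.17 to 1.26). The 1 higher member was miR-448-3p, which was below 10 counts in the control-labelled library and had 11 counts in the iFIRKO-labelled library.

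Marker miRNAs of other sources differed between the same libraries, in directions that also rest on the labels. The 6 erythroid markers made up 30.5% of the control-labelled library and 22.2% of the iFIRKO-labelled library. Most of this share was miR-16-5p alone (260382 and 190830 CPM). Of the erythroid markers 6 of 6 were lower, among them miR-144-3p and miR-451a, whose direction puts the labels in doubt (with exchanged labels 1.97 and 2.45). The 3 platelet and endothelial markers made up 5.87% and 4.34%, and 3 of 3 were lower. The 3 hepatocyte markers made up 11.9% and 19.9%, and 3 of 3 were higher, whereas with TMM scaling 0 of 3 were. On the deposited scale 88.1% of all miRNAs were higher, as were 48 of the 118 with a mean count over 1000. None of these markers was at the limit of 10 counts, and their part in the values of miR-130a-3p and miR-301a-3p was not tested.

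**Figure D5:**
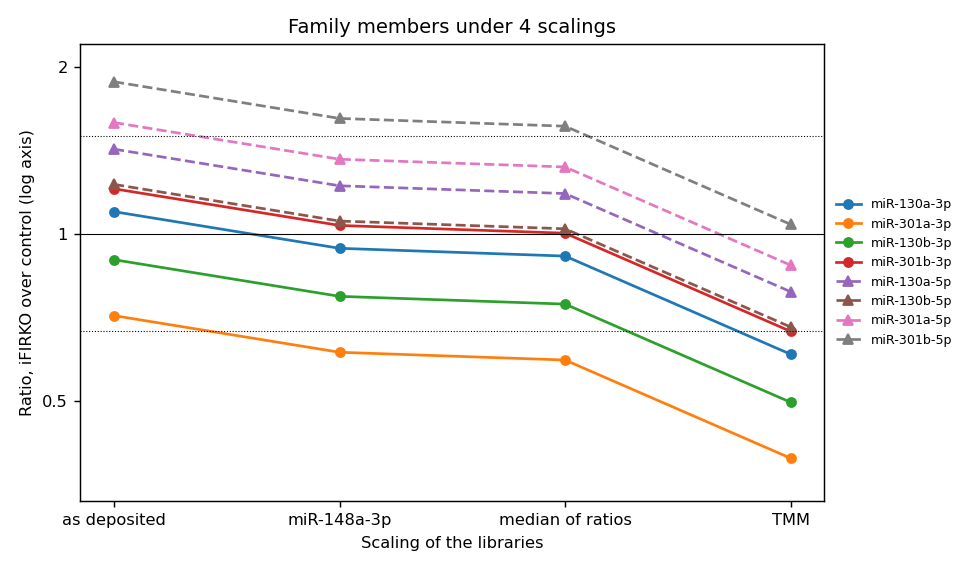
Ratio of iFIRKO to control as labelled (log axis) of the 8 members on the deposited scale and under 3 other scalings, with 3p arms as circles on solid lines and 5p arms as triangles on dashed lines. Dotted lines mark 1.5-fold in either direction. The lines are parallel, since a scaling multiplies all members alike, and the order from miR-301b-5p (1.88 as deposited) down to miR-301a-3p (0.712) is the same throughout, whereas the number of members above 1 goes from 6 to 1.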

How the data were processed

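Small RNA of serum EVs was sequenced in 1 library per group. The authors prepared libraries with a QIAseq miRNA kit, sequenced them on a NextSeq500 and processed the reads with the GeneGlobe platform. The submitters' notes name the build mm10, and the aligner, the annotation release and the use of molecular identifiers are not given in the sources used here. The deposited signal is a share of the library, 1 value per miRNA. For both libraries 100% of values lay within 0.1 of a whole multiple of 1 step, so counts were recovered, and the inverse of the step was taken as the depth. The lowest value stands for fewer than 10 counts (76 and 35 miRNAs, under 2.62 and 4.48 CPM), and no member was there.

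The ratio was that of the deposited signal without a pseudocount. Its 95% interval came from the Clopper-Pearson interval of the iFIRKO share of both counts, and ratios between members have exact conditional intervals (scipy 1.17.1). These steps were tested on simulated data. No p-value was computed. Named were all members, miRNAs with the same or a shifted seed, the 3 of nearest ratio and the listed miRNAs. The members and lists were chosen with earlier results of these data known. Alternatives were 4 scalings (TMM with edgeR 4.0.16), a pseudocount of 1 CPM, the lowest value set to 10 counts, a 2-fold threshold and filters at a mean count of 10 and 100. Loci and transcripts were those of GENCODE M21.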

Additional observations from a re-analysis of the deposited data

How the results depend on the processing

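With 1 library on each side none could be left out. No paired analysis was possible because the labels give 1 sample per genotype. With the median of ratios the summed family had a ratio of 0.830 and the guide arms a median log2 ratio of -0.28. Under that scaling 1 member was over 1.5-fold higher and 1 lower, against 957 and 113 of all 1847 miRNAs. With miR-148a-3p as the reference the summed ratio was 0.857, with 1 member higher and 1 lower, against 1001 and 102 of all. With TMM the summed ratio was 0.552, with 0 members higher and 3 lower, against 388 and 360 of all. The median log2 ratio with TMM was -0.87 for the guide arms and -0.27 for the passenger arms. Also with TMM, miR-301a-5p, over 1.5-fold higher as deposited, turned to 0.878. With a 2-fold threshold 0 members were higher, against 794 of all miRNAs. Among miRNAs whose mean count was at least 100, 0 members were higher, against 145 of all such miRNAs (302 from 100 to 1000 and 118 over 1000). Only miR-130a-3p, miR-130b-3p and miR-301a-3p passed this filter. Without miR-130a-3p the summed ratio was 0.880. Within the guide arms alone miR-130a-3p made up 57.2% and 64.4%. These shifts follow from the construction of each alternative: 1 factor on every miRNA, a higher threshold, or fewer members. Equal totals, the pseudocount, the lowest value at 10 counts and the same filter at 10 left the summed ratio, the medians and the counts of members past the threshold, where recomputed, within counting error or 1.5 times. So did the 3p arms alone and, in an alternative chosen after seeing the data, the guide arms with the other miRNAs of the same seed. The passenger arms rested on 20 to 95 counts each, and at this depth no pair of them had distinguishable ratios between the libraries.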
